A study of Homo sapiens with 4 samples.

Results

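Chromosome 13 is an acrocentric human chromosome whose deposited bins all lie on the long arm. It was taken as every bin with that chromosome name in a table of replication states for single cells, which gave 1155 bins of 80 kb out of 27704 (4.17%), from chr13:19200001 to 115120000 in hg19/GRCh37, the build named in the submitters' processing notes. The study used single-cell Repli-Seq, in which cells sorted in S phase are sequenced one by one and each bin is called replicated or unreplicated from its copy number. Cells were sorted by DNA content into early, mid and late fractions of S phase, which went into each library in equal numbers. The tested line was DKO1, a double knockout line for DNMT1 and DNMT3B, 2 genes for enzymes that methylate DNA (207 cells). The line it was set against was its parent HCT116, a colorectal cancer cell line with both genes intact (322 cells).

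Each line had 1 S-phase library, so a difference between the lines could not be told apart from a difference between libraries or between one derived line and its parent. No test was made, and the intervals given are exact (Clopper-Pearson) 95% intervals that cover the counting of cells only. The libraries shared 0 cell barcodes and held 0 pairs of identical cells. The G1 cells of each line were not analysed here. The table holds no read counts, so the depth behind a call and the knockout itself could not be checked from it.

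Replication timing is the order in which stretches of the genome are copied during S phase. Gene-rich, active, centrally placed chromatin is usually copied first, and gene-poor chromatin near the nuclear lamina last. DNMT1 copies methylation onto newly made DNA and DNMT3B adds it to unmethylated sites, and long gene-poor late domains are where methylation is often lost in cancer cells.

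The table gives each bin in each cell the code 2, 1 or 0 and does not define them. Code 2 was read as replicated, code 1 as unreplicated and code 0 as not called. Over the other 20 chromosomes that held 100 bins or more, gene-dense chromosomes had more code 2 (Spearman rho 0.86 in DKO1 and 0.83 in HCT116, a description over chromosomes that share the same cells). A cell's progress is the percent of its called bins on the other autosomes that were replicated. It ran between 9.73 and 78.95% with a median of 49.4% in DKO1, and between 17.7 and 77.9% with a median of 53.1% in HCT116. Shares of cells with a bin replicated were averaged over 6 strata of progress, each 10 points wide, from 20 to 80%, so that both lines were compared at matched progress.

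The label of a gene-poor, late chromosome held in both lines. Chromosome 13 had 338 protein-coding genes in RefSeq (GRCh38.p14), or 2.96 per Mb of gene span, the lowest density of the 21 chromosomes with at least 100 bins. Its mean replicated share was 41.3% in DKO1 and 37.6% in HCT116, against 49.9% in DKO1 and 49.8% in HCT116 over the rest of the table. It ranked lowest of the 21 in HCT116, while chromosomes 18 (36.2%) and 4 (38.1%) were lower in DKO1. Chromosomes 18 and 4, the next gene-poor ones, had lower shares in DKO1 than in HCT116, by differences of -2.25 and -1.11 points, whereas chromosome 13 had a higher one, by 3.66 points. This was not particular to chromosome 13, since chromosomes 19 (4.80 points) and 21 (4.21 points) had larger differences. It also did not hold in every stratum: at 70 to 80% progress the means over cells differed by -3.34 points. These values, and those below unless stated, use the 968 bins of chromosome 13 for which 90% or more of the cells of each line had a call.

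The early and late ends of chromosome 13 lay closer together in DKO1 than in HCT116. The SD over bins of the replicated share was 23.7 points in DKO1 and 29.96 points in HCT116. The used autosomal bins were put in 3 equal classes by the mean of both lines' shares, with limits at 26.5 and 70.9%. Chromosome 13 had 393 late bins (40.6%), 405 middle bins (41.8%) and 170 early bins (17.6%). Late bins averaged 17.7% replicated in DKO1 and 7.96% in HCT116, a difference of 9.71 points, against 5.17 points on the other chromosomes. Early bins averaged 78.2% in DKO1 and 84.8% in HCT116, a difference of -6.60 points, against -2.96 points elsewhere. Of the 21 chromosomes, only 1 had a larger late difference and only 1 a larger early one. The late difference had the same sign in 387 of 393 bins (98.5%), against 77.7% of the late bins elsewhere. Middle bins averaged 48.7% in DKO1 and 46.6% in HCT116, and that difference of 2.09 points became -0.387 points when code 0 was counted as unreplicated.

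**Figure D1:**
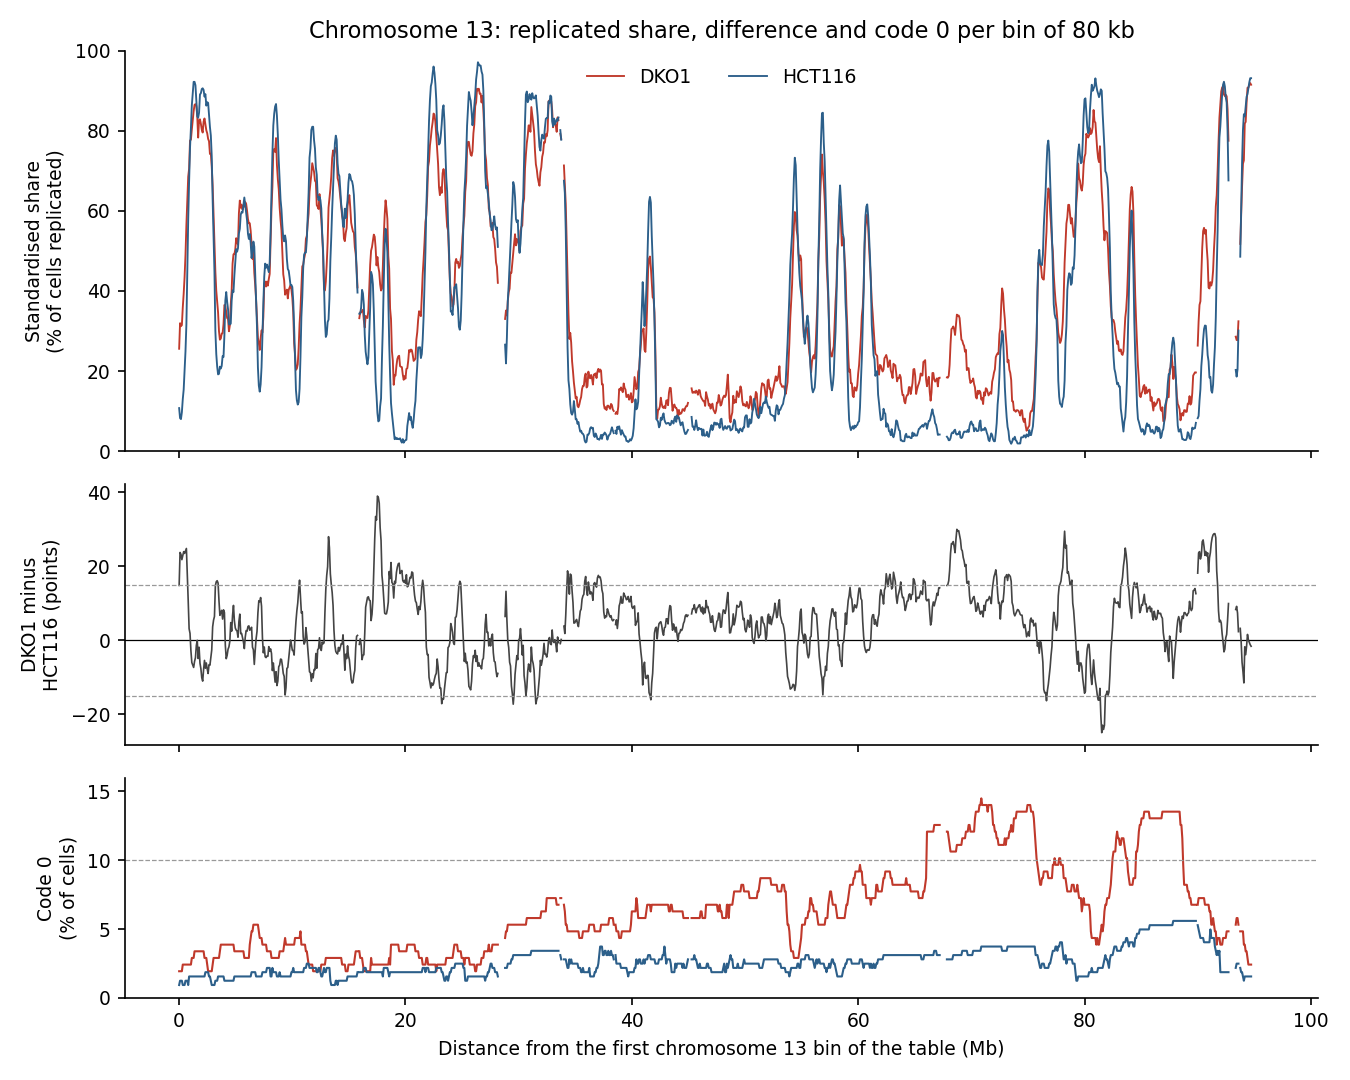
Replicated share along chromosome 13, averaged over strata of matched progress, for all 1155 bins in DKO1 and HCT116 (percent of cells, top). The middle panel is the difference DKO1 minus HCT116 (points). The bottom panel is the percent of cells of each line in which the bin was not called. All panels are drawn against distance from the first bin in Mb. The long late middle of the chromosome is higher in DKO1, and the early peaks are mostly at or below their HCT116 height.

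The late bins differed through most of S phase, and the medians over cells showed it apart from the few extreme cells. At 30 to 40% progress the median cell had 3.56% of its late bins replicated in DKO1 (n = 36 cells) and 0.382% in HCT116 (n = 50). At 50 to 60% the medians were 10.4% in DKO1 (n = 51) and 2.80% in HCT116 (n = 74). At 60 to 70% they were 29.3% in DKO1 (n = 41) and 8.40% in HCT116 (n = 82). The cells overlapped in every stratum: at 60 to 70% they ran between 0.392 and 73.8% in DKO1 and between 1.02 and 95.4% in HCT116. Code 0 took 31.3% of the chromosome in that lowest DKO1 cell and 29.8% in that highest HCT116 cell. At 20 to 30% the median was 0% in DKO1 (n = 11) and 0.254% in HCT116 (n = 29), so the medians were close at the start. However, 1 DKO1 cell there had 100% of its called late bins replicated, with code 0 in 84.3% of the chromosome.

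Neither line had finished the late bins in the cells sampled last. In cells over 70% progress, late bins were replicated to 15.9% in the lowest, 37.8% in the median and 62.6% in the highest DKO1 cell (n = 10), and to 9.16%, 21.1% and 42.7% in the same order in HCT116 (n = 23). Early bins in the same cells had a median of 97.1% in DKO1, with a lowest cell of 28.1%, and a median of 100% in HCT116, with a lowest cell of 86.5%.

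**Figure D2:**
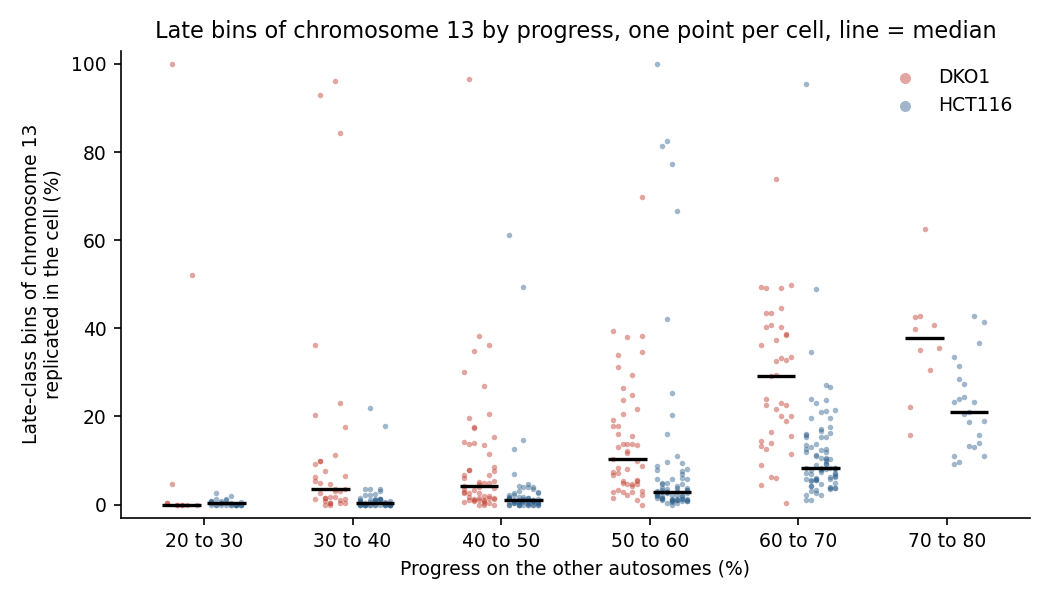
Percent of the late bins of chromosome 13 replicated in each cell, in 6 strata of progress on the other autosomes, for DKO1 and HCT116, with a line at each median. Medians are 29.3% in DKO1 and 8.40% in HCT116 at 60 to 70% progress, and single cells near 100% appear in both lines.

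Code 0 and the departing cells described further on moved with these differences, and their part in them was not tested. Restricted to cells in which no more than 1% of all bins had code 0 (60 in DKO1 and 188 in HCT116, in 4 strata), the late difference was 5.16 points on chromosome 13 and 2.35 points elsewhere, and the early difference was -2.88 and -1.81 points. Leaving out the departing cells gave a late difference of 8.83 points and an early one of -5.01 points.

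Smoothed and split at 50% of the mean of both lines, the chromosome formed 15 domains, 8 early ones over 31.5 Mb and 7 late ones over 64.4 Mb. All 7 late domains had higher shares in DKO1, by 0.203 to 17.98 points. Of the 8 early domains, 5 had lower and 3 higher shares in DKO1, with differences between -10.2 and 2.57 points. The order was almost the same in both lines: the progress at which a fitted logistic curve reached 50% (the midpoint) had a Spearman rho of 0.99 over the 15 domains, which share their cells. Because the domains were cut from the mean of both lines, part of this likeness was set in advance. The span of progress over which the curve passed between 25 and 75% was wider in DKO1 in 13 of 15 domains, in 10 without the departing cells and in 9 with little code 0.

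**Figure D3:**
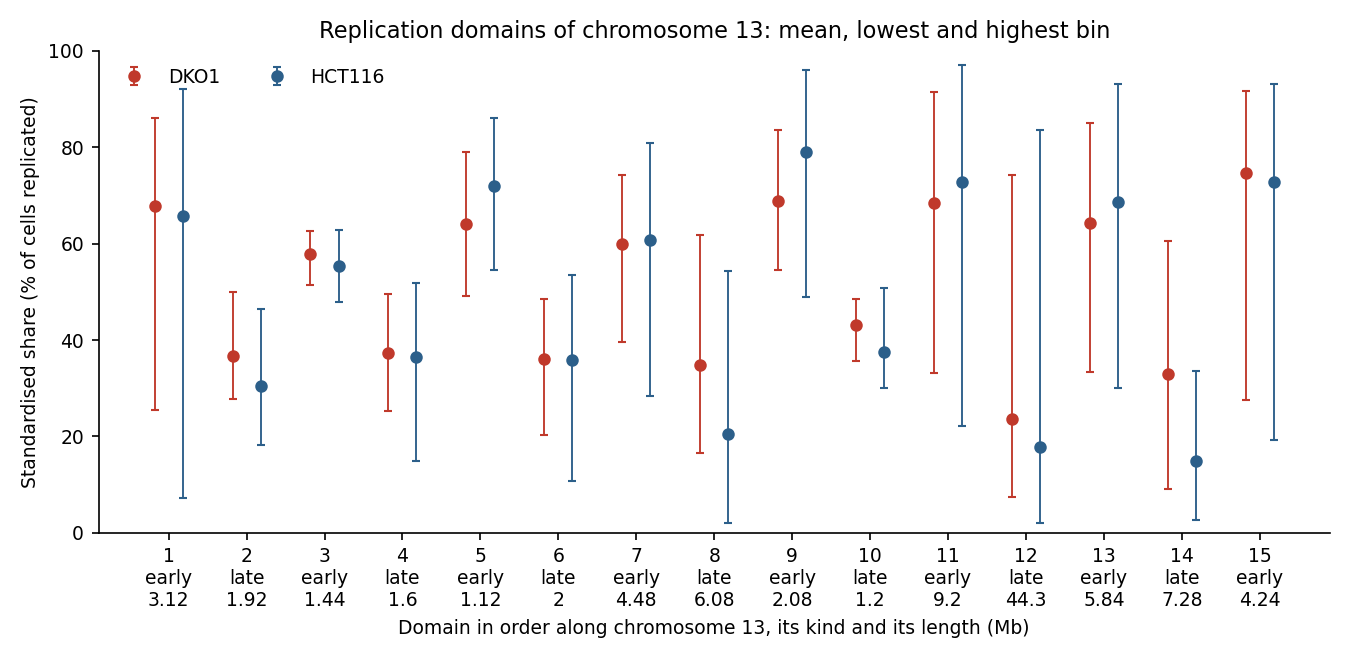
Replicated share of each of the 15 domains of chromosome 13 in order along the chromosome (percent of cells, matched progress), for DKO1 and HCT116. The 7 late domains are higher in DKO1, most of all domains 14 and 8.

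Among the late domains, the longest was domain 12, chr13:53440001-97760000, which spans 44.3 Mb and so most of the late sequence of the chromosome. Its share was 23.6% in DKO1 and 17.8% in HCT116, and it was mostly replicated in 17 of 190 DKO1 cells (8.95%, 5.30 to 13.9%) and 13 of 314 HCT116 cells (4.14%, 2.22 to 6.98%). A region counts as mostly replicated in a cell with over 50% of its called bins replicated, among cells with at least 50% of its bins called. In both lines its fitted midpoint lay beyond the sampled range of progress, at 84.9% in DKO1 and 80.8% in HCT116, so later in DKO1. Without the departing cells it was 76.8% progress in DKO1 and still beyond the range in HCT116. The midpoint therefore gave no firm direction. Of the 543 bins of this domain 425 were used, and code 0 took 7.99% of its calls in DKO1 and 2.74% in HCT116. This domain was not uniform. It held 6 earlier islands, stretches of at least 5 bins where the smoothed mean of both lines was 35% or more, with 73 bins in all. The islands averaged 50.3% in DKO1 and 55.4% in HCT116, a difference of -5.13 points, while the 352 bins between them averaged 18.1% in DKO1 and 10.0% in HCT116, a difference of 8.06 points. So within a single late domain each island had a lower mean share in DKO1, though at chr13:77280001-78160000 the difference was only -0.0864 points. The bins between the islands were higher in DKO1 on average.

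The highest island, chr13:75680001-76640000, had 57.6% in DKO1 and 63.6% in HCT116. The island at chr13:60560001-61200000 was 42.7% in DKO1 and 53.8% in HCT116, with all 8 of its bins lower in DKO1. The other 4 islands differed by -6.84 to -0.0864 points, and no direction can be read for chr13:77280001-78160000, which was higher in DKO1 in 3 of 6 strata. The latest stretch of 12 bins among the used bins of the chromosome, chr13:56720001-57680000, lay in the same domain. It was 11.1% replicated in DKO1 and 4.14% in HCT116, with all 12 bins higher in DKO1.

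The 2 late domains with the largest differences lay outside that block. Domain 14, chr13:103600001-110880000, was 32.9% replicated in DKO1 and 14.9% in HCT116, and all 38 of its used bins were higher in DKO1. However, 52 of its 90 bins fell under the call limit. Among the calls that remained, those 52 bins were 14.5% replicated in DKO1 and 9.53% in HCT116, a smaller gap. The size of the domain 14 difference therefore holds for its used bins only. Over those used bins the midpoint was 67.1% progress in DKO1 and beyond the sampled range in HCT116. Domain 8, chr13:34880001-40960000, was 34.8% replicated in DKO1 and 20.6% in HCT116, with midpoints of 61.8% progress in DKO1 and 71.3% in HCT116 and a higher share in DKO1 in 6 of 6 strata. In domain 8 code 0 took 2.98% of calls in DKO1 and 1.90% in HCT116, and its part in the difference was not tested.

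The remaining late domains are short. Domain 2, chr13:22320001-24240000, was 36.8% in DKO1 and 30.4% in HCT116, and was higher in DKO1 in 6 of 6 strata. Domains 6 (chr13:28400001-30400000) and 4 (chr13:25680001-27280000) differed by 0.203 and 0.732 points, and each was higher in DKO1 in 3 of 6 strata, so no direction can be read for them. Domain 10, chr13:43040001-44240000, was 43.1% in DKO1 and 37.4% in HCT116.

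The early domain with the largest difference was domain 9, chr13:40960001-43040000. It was 68.9% replicated in DKO1 and 79.1% in HCT116, and was lower in DKO1 in all 6 strata and in 25 of its 26 bins. It was mostly replicated in 159 of 202 DKO1 cells (78.7%, 72.4 to 84.1%) and 274 of 316 HCT116 cells (86.7%, 82.5 to 90.3%). Its midpoint was 34.0% progress in DKO1 and 30.7% in HCT116.

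The longest early domain, domain 11 at chr13:44240001-53440000, was 68.5% in DKO1 and 72.8% in HCT116, with midpoints of 33.6% progress in DKO1 and 33.8% in HCT116. Domain 13, chr13:97760001-103600000, was 64.3% in DKO1 and 68.7% in HCT116. Domain 7, chr13:30400001-34880000, was 60.0% in DKO1 and 60.7% in HCT116. Domain 11 was higher in DKO1 in 1 of 6 strata, domain 13 in 2 and domain 7 in 3, so no direction can be read for domain 7. The short domain 5, chr13:27280001-28400000, was 64.0% in DKO1 and 71.9% in HCT116, with all 14 bins lower in DKO1. Domain 3, chr13:24240001-25680000, was 57.9% in DKO1 and 55.3% in HCT116.

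The early domains at the 2 ends of the chromosome had slightly higher shares in DKO1. Domain 15, chr13:110880001-115120000, the last before the end of the table, was 74.6% in DKO1 and 72.9% in HCT116, but its midpoint was later in DKO1, at 30.7% progress against 27.1% in HCT116, so share and midpoint gave no common direction. Domain 1, chr13:19200001-22320000, was 67.9% in DKO1 and 65.7% in HCT116. In domain 1 only 15 of 39 bins were higher in DKO1, among them the first 10, described below.

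Set separately in each line, the chromosome had 17 domains in DKO1 and 18 in HCT116. Of the 16 borders in DKO1 and 17 in HCT116, 14 were matched within 3 Mb, with a median shift of 0.08 Mb, which is 1 bin, and 9 lay within 1 bin. The largest shift was at the distal edge of domain 13, where the early domain ended at 103600000 in DKO1 and at 101440000 in HCT116, 2.16 Mb apart, in a stretch where many DKO1 bins fell under the call limit. A late stretch at chr13:47200001-48800000 was set apart only in DKO1 (41.6%). An early piece at chr13:95600001-96400000 (65.8%) and a late first piece at chr13:19200001-20000000 (18.2%) were set apart only in HCT116.

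Bins that differed by at least 15 points were mostly higher in DKO1. On chromosome 13, 121 of 968 bins (12.5%) were at least that much higher, against 7.04% of all used bins, and 22 (2.27%) were at least that much lower, against 7.17% of all used bins. Only 1 of the 21 chromosomes had a larger share of higher bins. Joined into runs of at least 5 bins, these gave 9 higher runs, 6.34% of the 142 in the table. They gave 1 lower run, 0.690% of 145, while chromosome 13 holds 3.57% of the used bins. The runs were picked by their difference in these same cells and strata. The strata, cell counts and midpoints given for them below describe them and are no separate support.

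The run with the largest summed difference was chr13:109200001-110960000, the distal edge of domain 14. Its 22 bins averaged 46.4% in DKO1 and 22.6% in HCT116. It was mostly replicated in 77 of 193 DKO1 cells (39.9%, 32.9 to 47.2%) and in 49 of 309 HCT116 cells (15.9%, 11.97 to 20.4%). The midpoint was 53.1% progress in DKO1 and 75.03% in HCT116, so this edge was passed in the middle of S phase in DKO1 and near the end of the sampled range in HCT116.

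The largest mean difference was in chr13:36400001-37280000, within domain 8. Its 11 bins averaged 46.3% in DKO1 and 17.2% in HCT116. It was mostly replicated in 82 of 202 DKO1 cells (40.6%, 33.8 to 47.7%) and in 38 of 316 HCT116 cells (12.03%, 8.65 to 16.1%). The midpoints were 54.0% progress in DKO1 and 73.7% in HCT116. In the same domain, chr13:38240001-39360000 averaged 20.5% in DKO1 and 2.78% in HCT116 and was mostly replicated in 34 of 200 DKO1 cells (17.0%, 12.1 to 22.9%) and 7 of 316 HCT116 cells (2.22%, 0.895 to 4.51%). This second stretch stayed late in both lines, and 4 of the 9 higher runs lay in domain 8.

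Across the border between domains 12 and 13, chr13:97120001-98160000 averaged 49.4% in DKO1 and 28.8% in HCT116, with 104 of 190 DKO1 cells (54.7%, 47.4 to 62.0%) and 91 of 314 HCT116 cells (29.0%, 24.02 to 34.3%) mostly replicated. The first 10 bins of the table, chr13:19200001-20000000, next to the centromere, averaged 39.9% in DKO1 and 18.2% in HCT116, with 73 of 202 DKO1 cells (36.1%, 29.5 to 43.2%) and 35 of 319 HCT116 cells (11.0%, 7.76 to 14.9%) mostly replicated. All 5 of these runs were higher in DKO1 in 6 of 6 strata, and without the departing cells their shares differed by 17.3 to 28.8 points. The other 4 higher runs had 5 bins each and differed by 16.8 to 20.9 points.

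The only lower run was chr13:100640001-101040000, inside early domain 13. Its 5 bins averaged 60.7% in DKO1 and 83.8% in HCT116, lower in DKO1 in 6 of 6 strata. It was mostly replicated in 125 of 197 DKO1 cells (63.5%, 56.3 to 70.2%) and 270 of 315 HCT116 cells (85.7%, 81.4 to 89.4%), with midpoints of 38.7% progress in DKO1 and 23.2% in HCT116.

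Chromosome 13 followed the rest of the genome less closely than most chromosomes did. A cell was called departing when its share of chromosome 13 lay more than 15 points from a smooth curve of that share on progress, fitted in each line. In DKO1, 24 of 207 cells departed (11.6%, 7.57 to 16.8%), 12 of them above and 12 below the curve. In HCT116, 15 of 322 departed (4.66%, 2.63 to 7.57%), 10 above and 5 below. Over all cells and 21 chromosomes the same limit was passed in 5.04% of cases in DKO1 (2.46% above and 2.58% below) and 1.75% in HCT116 (0.769% above and 0.976% below). No other chromosome had a larger share of departing cells in DKO1, and in HCT116 it shared the first place with chromosome 21. Of the departing cells, 18 of 24 in DKO1 and 7 of 15 in HCT116 departed on another chromosome as well.

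**Figure D4:**
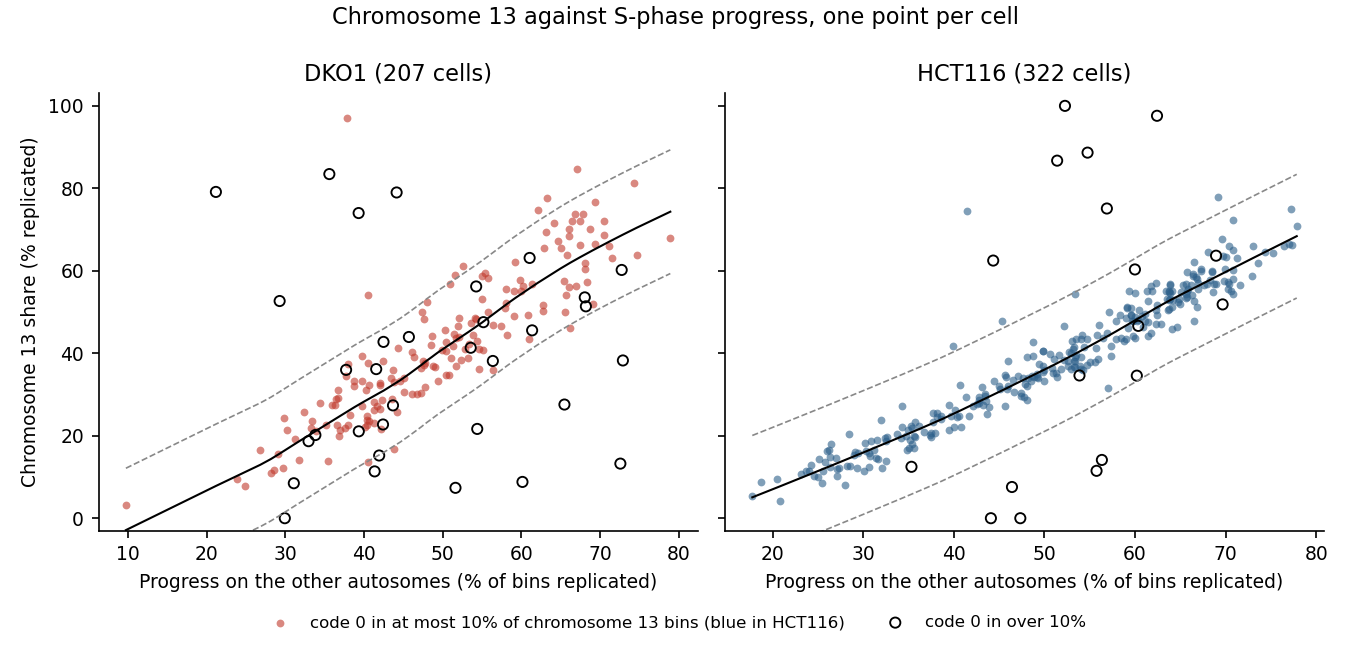
Replicated share of chromosome 13 against progress on the other autosomes, 1 point per cell, with the fitted curve and lines 15 points above and below it, for DKO1 (207 cells) and HCT116 (322 cells). Open circles are cells with code 0 in over 10% of chromosome 13, and they make up 14 of the 24 departing DKO1 cells and 11 of the 15 departing HCT116 cells.

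Code 0 moved with these departures, and its part in them was not tested. Cells with code 0 in over 10% of chromosome 13 departed in 14 of 33 cases in DKO1 (42.4%) and 11 of 18 in HCT116 (61.1%). Cells with no code 0 there departed in 8 of 160 cases in DKO1 (5.00%, 2.18 to 9.61%) and 2 of 255 in HCT116 (0.784%, 0.0951 to 2.80%). In those cells without code 0, the SD of the distance from the curve was 7.04 points in DKO1 and 3.57 points in HCT116. With code 0 in at most 1% of all bins, 0 of 65 DKO1 cells and 2 of 227 HCT116 cells departed.

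Some of the farthest cells had calls on only part of the chromosome, and others on nearly all of it. In DKO1 the cell farthest above the curve, by 71.3 points, was at 21.2% progress with 79.1% of chromosome 13 replicated, but only 115 of its used bins were called. The next, 71.2 points above, was at 37.9% progress with 97.1% replicated over 951 called bins and code 0 in 1.47% of the chromosome, while 14.6% of its other bins had code 0. The following 3 lay 60.3, 46.5 and 46.1 points above, each with code 0 in 48.5 to 53.5% of the chromosome. The 5 farthest below lay between -55.2 and -30.5 points, and the first of these was at 72.6% progress with 13.2% of the chromosome replicated.

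In HCT116 the cell farthest above, by 61.4 points, was at 52.3% progress with 100% replicated over 301 called bins. The next 4 lay 46.5 to 49.1 points above, among them a cell at 41.5% progress with 74.4% replicated over 943 called bins. All 5 cells below the curve, at -33.2 to -24.6 points, had code 0 in 47.1 to 81.6% of the chromosome, and 2 of them had 0% replicated in the bins that were called.

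Some departing cells were replicated at one end of the chromosome and little or not at the other, in both directions. Cut into 4 parts of 242 used bins, 3 DKO1 cells had 88.4 to 98.1% replicated in the first part and 0% in the fourth, and 1 HCT116 cell had 100% in the first and 7.14% in the fourth. Each of these had code 0 in 36.1 to 53.5% of the chromosome. The reverse was seen in 4 DKO1 cells, with 0% in the first and second parts and 18.4, 30.2, 79.7 and 85.5% in the fourth, and code 0 in 12.3 to 79.7% of the chromosome. The 8 departing DKO1 cells with no code 0 on the chromosome did not show this; the 6 of them above the curve had 35.1 to 96.7% in the first part and 55.4 to 93.8% in the fourth.

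In a few cells the usual order of early and late bins was turned. Among cells with code 0 in over 10% of the chromosome, 7 in DKO1 and 2 in HCT116 had a larger share of their called late bins than of their called early bins replicated. None of the cells with less code 0 did, in either line.

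**Figure D5:**
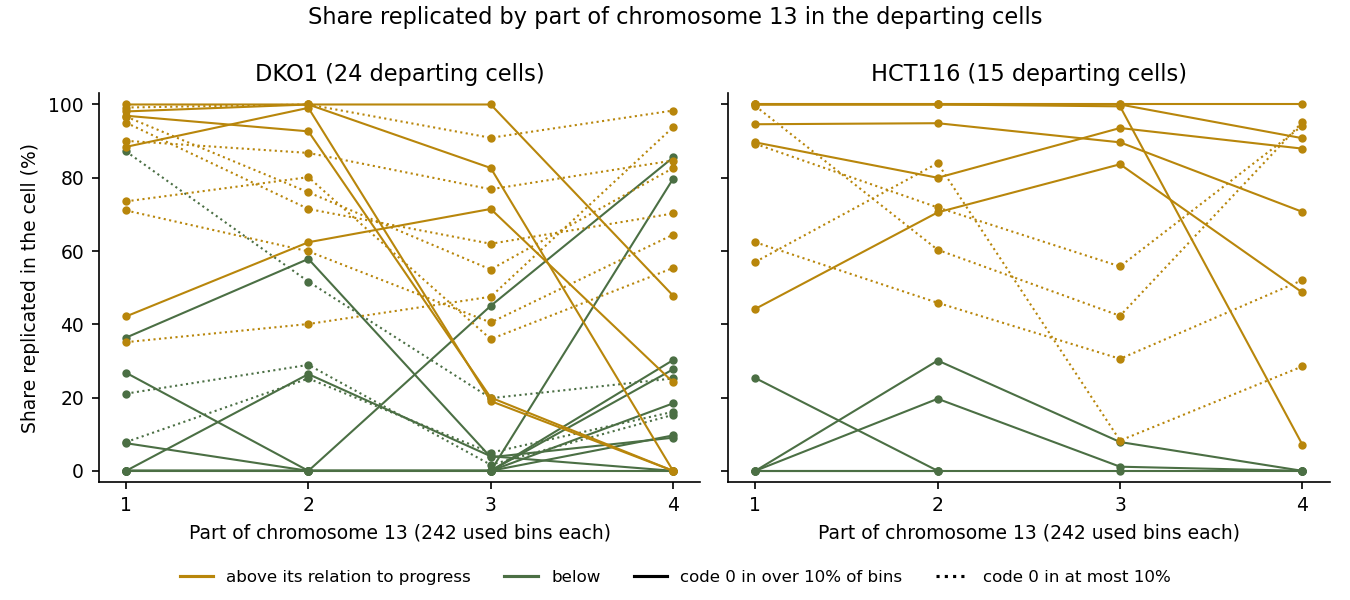
Replicated share in each of 4 parts of chromosome 13 (percent of the called bins, 242 used bins a part), 1 line per departing cell, for DKO1 (24 cells) and HCT116 (15 cells). The 3 DKO1 lines and the 1 HCT116 line that start at 88.4% or more and end at 7.14% or less are solid, with code 0 in over 10% of the chromosome, as are 4 DKO1 lines that start at 0% and end higher, at 18.4 to 85.5%. A part with no called bin has no point.

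Code 0 itself was counted over all 1155 bins of the chromosome. It was more frequent on chromosome 13 than on any of the other 20 chromosomes in both lines, at 6.45% of calls in DKO1 and 2.61% in HCT116. It was concentrated in few cells: 160 DKO1 cells (77.3%) and 255 HCT116 cells (79.2%) had none. Cells with code 0 in over 10% of the chromosome, 33 in DKO1 (15.9%) and 18 in HCT116 (5.59%), held 96.6% of it in DKO1 and 92.8% in HCT116. In 13 DKO1 and 7 HCT116 cells over 50% of the chromosome had code 0, more cells than on any of the other 20 in either line.

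A run of at least 25 bins (2 Mb) of code 0 was found in 38 of 207 DKO1 cells (18.4%, 13.3 to 24.3%) and 24 of 322 HCT116 cells (7.45%, 4.83 to 10.9%). Over all cells and 21 chromosomes such a run was found in 11.5% of cases in DKO1 and 3.56% in HCT116. Chromosome 13 did not lead on this measure. Chromosomes 3 (25.6%), 2 and 4 (22.2% each) were higher in DKO1, and chromosomes 4 and 6 (8.07% each) in HCT116. These runs held 88.3% of the code 0 of the chromosome in DKO1 and 82.9% in HCT116. The longest, 276 bins or 22.1 Mb in each line, filled a whole stretch of the table between 2 gaps, where a run had to end. Counted across the gaps, the longest stretch was 522 bins in DKO1 and 617 in HCT116. Runs were found at every stage of S phase: in DKO1 4 of 12 cells under 30% progress and 3 of 10 over 70% had one, and in HCT116 1 of 31 and 1 of 23.

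Code 0 was not even along the chromosome. Over all 1155 bins, the 565 late ones had it in 8.35% of calls in DKO1 and 3.03% in HCT116. The 173 early ones had it in 4.16% in DKO1 and 2.12% in HCT116. These late bins include bins left out of the comparisons because too few DKO1 cells had a call, which raises the late value in DKO1. By windows of 5 Mb, the excess in DKO1 was highest at 90 to 95 Mb (12.8% in DKO1 and 3.67% in HCT116), at 85 to 90 Mb (11.8% in DKO1 and 3.16% in HCT116) and at 100 to 105 Mb (9.33% in DKO1 and 3.60% in HCT116). It was lowest at 40 to 45 Mb (2.83% in DKO1 and 1.94% in HCT116), 30 to 35 Mb (2.67% in DKO1 and 1.70% in HCT116) and 35 to 40 Mb (2.95% in DKO1 and 1.89% in HCT116). The last of these windows lies in domain 8. At 85 to 90 Mb only 3 of 55 bins passed the call limit, and at 90 to 95 Mb 0 of 63.

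With all cells counted, cells in the middle of S phase differed from each other more on chromosome 13 than on any of the other 20 chromosomes in both lines. Pairs of cells at 40 to 60% progress, within 5 points of each other, disagreed in 31.6% of bins in DKO1 (2490 pairs of 108 cells) and 26.5% in HCT116 (4046 pairs of 136 cells), against 22.9% in DKO1 and 16.9% in HCT116 on the rest of the genome. Early bins disagreed in 26.4% of comparisons in DKO1 and 15.5% in HCT116, against 13.9% in DKO1 and 6.51% in HCT116 on the rest. Late bins disagreed in 20.6% in DKO1 and 13.02% in HCT116, against 13.8% in DKO1 and 7.86% in HCT116 on the rest. Middle bins were closer to the rest, at 42.6% in DKO1 and 39.9% in HCT116, against 41.0% in DKO1 and 36.4% in HCT116. In cells with no code 0 on the chromosome the disagreement was 26.7% in DKO1 (86 cells) and 18.8% in HCT116 (105 cells), so the lines stayed apart there. Without the departing cells it was 28.5% in DKO1 (98 cells) and 19.1% in HCT116 (124 cells). The rank among the chromosomes was not taken again in either set of cells. The grain of the pattern was alike: the median cell switched state 47 times along the chromosome in DKO1 and 51 times in HCT116, and the median replicated stretch was 0.64 Mb in both.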

How the data were processed

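The deposited table holds a state code (0, 1 or 2) per 80 kb bin and cell, a categorical score made by the authors from sequenced single S-phase cells. It holds no read counts, and depth per cell is not given in the sources used here. Per the submitters' processing notes, Cell Ranger, SAMtools 1.10 and bedtools 2.26.0 were used with hg19/GRCh37; how states were called is not given there. No annotation or sequence of that build was used here, so no gene was assigned to a bin.

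Code 0 was left out of shares. Bins were used where 90% or more of the cells of each line had a call. Shares were averaged over strata of progress with at least 5 cells of each line. Domains used a running median of 5 bins and at least 10 bins; midpoints came from logistic curves and widths from the span between 25 and 75%. Departing cells used a robust lowess (fraction 0.5, 3 iterations). The functions were tested on simulated data. Values were computed with Python 3.11.15, numpy 2.4.6, scipy 1.17.1, pandas 2.3.3 and statsmodels 0.14.6.

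The alternatives covered code 0, the call limit, the strata, the sets of cells, the domain settings and the limits for departing cells and runs. Regions named are the 6 longest domains of each kind, the 5 runs with the largest sums in each direction, 3 windows in each direction and 5 cells of each line in each direction, plus the islands, the latest stretch and the short domains 3, 5 and 10. The members, lists and rules were chosen with earlier results of these data known.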

Additional observations from a re-analysis of the deposited data

Results flagged for a closer look

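The bins of chromosome 13 outside the comparisons are listed here because they carried a signal. The call limit left out 187 bins, all beyond 80 Mb, and all of them fell under it in DKO1 only; they are 33.3% of the 562 bins left out in the whole table. Code 0 took 12.5% of their calls in DKO1 and 3.97% in HCT116. Among the calls that remained, 18.9% of cells at matched progress had these bins replicated in DKO1 and 8.36% in HCT116, a difference of 10.5 points. The longest stretch, chr13:87040001-95040000 with 100 bins, was 19.2% replicated in DKO1 and 6.47% in HCT116. Within it chr13:87120001-89040000 had 24 bins in a row that were each at least 15 points higher in DKO1, at 27.3% in DKO1 and 4.25% in HCT116, a longer run than any among the used bins. The part of the uneven loss of calls in these differences was not tested.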

How the results depend on the processing

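Of 89 alternative values, 74 stayed within the size of change set for them, 13 moved and 2 changed sign. The late, early and overall differences kept their sign, at 5.16 to 9.76, -10.00 to -2.88 and 1.57 to 4.90 points. The middle-class difference, 2.09 points, was -0.387 with code 0 as unreplicated and 4.42 at most. The 22 bins at least 15 points lower in DKO1 became 58 with code 0 as unreplicated, 9 with strata of 5 points, 12 with strata from 30 to 70%, and 13 without cells with a long code 0 run. Without cells with code 0 in over 10% of chromosome 13, chosen after seeing the data, there were 12. Domains numbered 34 with at least 5 bins. Departing DKO1 cells were 23.2% beyond 10 points, 6.76% beyond 20, 0% with little code 0 (no more than 1% of bins) and 5.75% without cells with code 0 in over 10%; the last 2 gave 0.881% and 1.32% in HCT116. Late domains with a wider span of replication in DKO1 numbered 7, and 4 with little code 0; the median midpoint difference of early domains, 0.715 points, was -0.225 there. The causes were not tested. A call limit of 99% left 0 bins on chromosome 13 and gave no value. No paired analysis was possible because each line had 1 S-phase library.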
